A study of Drosophila melanogaster with 4 samples.

Results

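Cadherins are transmembrane proteins whose extracellular cadherin repeats bind calcium and hold neighbouring cells together. Classical cadherins join an intracellular tail to beta-catenin and alpha-catenin at adherens junctions. Atypical members instead serve planar cell polarity, the shaping of microvilli or receptor signalling. In insects the classical E-cadherin type is best known from epithelia, and the N-cadherin type from neurons and mesoderm. The genes described here are the Drosophila melanogaster cadherins shg, CadN, stan, kug, Cad74A, Cad87A, Cad88C, Cad96Ca, Cad96Cb and Cad99C. They were taken by symbol and matched by FlyBase identifier to the table of exon counts, which gave 10 of its 17494 genes. Fat (ft) and Dachsous (ds) are outside this set, and so are the cadherins CadN2, Cad86C, Cad89D and Cals. Those genes are read among the partner genes below. All 10 passed the filter on low counts, which kept 10360 genes for testing.

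The RNA came from myoblasts attached to the wing disc, the precursors of adult flight muscle, at 0 h after puparium formation (APF). The Antp RNAi group carried Mef2-Gal4, UAS-GFPnls and UAS-Antp RNAi, a hairpin against the Hox gene Antennapedia (Antp), and had 2 libraries, replicates 1 and 2. The control carried Mef2-Gal4, UAS-GFPnls and UAS-Y RNAi, is named WT in its titles, and had 2 libraries, replicates 2 and 3. Another label names the GFP transgene as GFP::Gma and the control cross as WT, so the control genotype is not stated uniformly.
Both groups were raised at 29°C, both expressed GFP and Gal4, and both were sorted on viability, size and GFP from a pool of 30 to 35 wing discs, giving about 50000 cells. Mef2-Gal4 is a driver of the muscle lineage, and the hairpins were expressed under it. The series text speaks of independent biological replicates and the methods of the study of technical ones, so that p-values given here cover the spread between these libraries, which may be technical. Hairpin and strain background cannot be told apart.

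Libraries held 42110502 and 46817694 counts in Antp RNAi and 53082579 and 53957914 counts in the control. Values are given as CPM, counts scaled to a common library size with TMM factors, and, where genes are compared with each other, as RPKM, the CPM per kilobase of exon length in the table. The 2 Antp RNAi libraries differed from each other more than the control libraries did, with a median size of the log2 replicate difference of 0.234 in Antp RNAi against 0.116 in control over the genes tested. Antp itself had 135 and 144 CPM in Antp RNAi, against 192 and 172 CPM in control, and its log2 fold change was -0.38 ± 0.11 (SE, n = 2 each; adjusted p = 0.145 in edgeR's quasi-likelihood test, from 0.00938 without Antp RNAi replicate 2 to 0.9996 without control replicate 2 over the alternatives). The pigmentation gene y had 382 and 365 counts in Antp RNAi and 0 and 0 in control. Summed over 7 myoblast marker genes, the levels were 9752 to 10949 CPM in Antp RNAi and 9042 to 10335 CPM in control, and none of the 7 was at 0. Single markers differed in both directions under this sum. The groups did not overlap in 5 of the 7 (40.6% of all genes), with 3 above the control and 2 below it. At an unadjusted p under 0.05 in edgeR, zfh1 and htl were higher and Mef2 and vg lower in Antp RNAi (11.5% of all genes). At an adjusted p under 0.05, 0 were called (2.58% of all genes).
For 7 disc epithelium markers the sums were 41.4 to 43.4 CPM in Antp RNAi and 22.7 to 32.2 CPM in control. None of the 7 was at 0. At an adjusted p under 0.05 in edgeR, 1 of them, Fas3, was called, higher in Antp RNAi (2.58% of all genes). The groups did not overlap in 3 of the 7 (40.6% of all genes), crb, nub and Fas3, all above the control. Sums were 14.8 to 20.1 CPM in Antp RNAi against 12.2 to 16.4 CPM in control for 4 tracheal markers, and 26.3 to 31.4 CPM in Antp RNAi against 24.3 to 28.2 CPM in control for 4 neuronal markers. They were 0.718 to 0.825 CPM in Antp RNAi against 2.17 to 2.20 CPM in control for 5 hemocyte markers. Of the 3 hemocyte markers tested, 1, NimC1, was called at an adjusted p under 0.05 in edgeR (2.58% of all genes), lower in Antp RNAi. Sums for 3 glial markers were 1.63 to 1.82 CPM in Antp RNAi against 2.28 to 2.95 CPM in control. Of 3 fat body markers, 2 were at 0 counts in all 4 libraries.

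All 10 genes are protein coding. They lie on chromosome arms 2L (1 gene), 2R (2 genes), 3L (2 genes) and 3R (5 genes), and positions are those of the deposited table (build dm6). The longest annotated products run from 773 residues (Cad96Ca) to 4699 residues (kug) in the gene annotation, and the summed exon length runs from 2939 bases (Cad96Ca) to 14507 bases (kug). Cad96Ca and Cad96Cb are separated by 15872 bases of 3R, with 4 other genes between them. Exons of 8 members shared no base with another gene of the table. Cad88C shared 89 bases, 1.32% of its exon length, with CG7886, and Cad99C shared 5 bases with dgt1, so that reads in those bases may be attributed to either gene.

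The levels spanned a wide range within these cells. On the RPKM scale, shg averaged 108.9 over the 4 libraries, CadN 47.4, kug 8.50, Cad87A 6.86 and Cad96Cb 3.13. The others were all under 1 RPKM: stan at 0.591, Cad99C at 0.420, Cad74A at 0.344, Cad96Ca at 0.338 and Cad88C at 0.197. The highest was 554 times the lowest, and shg stood at percentile 93.3 of the RPKM of the genes tested, against 5.84 for Cad88C. The order of the first 6 was the same in every library. The ranges over libraries of neighbours in this order did not overlap between shg and CadN, CadN and kug, Cad87A and Cad96Cb, or Cad96Cb and stan. They did overlap between kug and Cad87A and between stan and Cad99C, although within each library kug was above Cad87A and stan above Cad99C. From Cad99C through Cad74A and Cad96Ca to Cad88C the ranges overlapped and the ranks changed between libraries. shg and CadN made up 87.6% to 88.5% of the summed RPKM of the 10 cadherins in Antp RNAi and 88.5% to 89.2% in control. That sum leaves out cadherins outside the 10. Among these, Cals averaged 28.8 RPKM over the 4 libraries, between CadN and kug. ds had 3.30 and 2.68 RPKM in Antp RNAi and 16.1 and 13.0 RPKM in control.

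**Figure D1:**
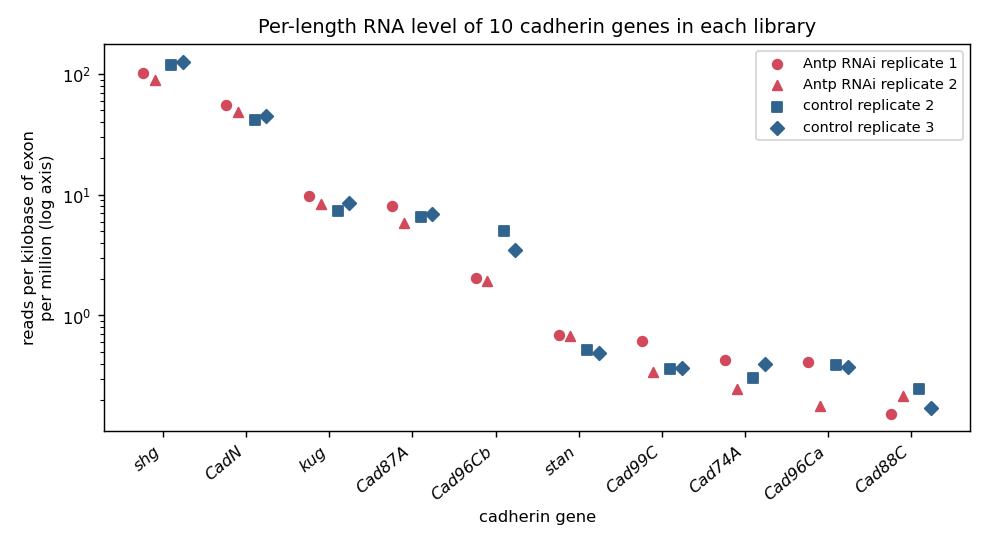
Level of each cadherin gene in each library, as RPKM on a log axis, with genes ordered by their mean over the 4 libraries. Each point is 1 library, Antp RNAi left of control; shg and CadN lie at the top at 41.5 to 127 RPKM, and 5 genes lie under 1 RPKM.

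shg encodes DE-cadherin, the classical cadherin of adherens junctions. It lies on 2R at 21049654 to 21057197, minus strand, with 6400 bases of exon in 2 blocks, and its product has 1507 residues. It had 27642 and 26153 counts in Antp RNAi and 40227 and 44184 counts in control, that is, 652 and 569 CPM in Antp RNAi against 757 and 811 CPM in control. The groups did not overlap, with shg at the lower CPM in Antp RNAi. The means were 610 ± 58.7 CPM in Antp RNAi and 784 ± 38.2 CPM in control (SD, n = 2 each), 77.9% of the control. The log2 fold change was -0.36 ± 0.11 (SE; 95% interval -0.61 to -0.11), and at an adjusted p = 0.176 (edgeR) shg was not called at 0.05. In the alternatives with all 4 libraries, the adjusted p ran from 0.0982 in DESeq2 to 0.221 in edgeR with a mean of at least 100 counts. With a library left out, the log2 fold change of shg ran from -0.46 (without Antp RNAi replicate 1) to -0.25 (without Antp RNAi replicate 2). Such a fit leaves 1 library in a group, which is assumed to vary like the other group.

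CadN encodes N-cadherin, known for axon patterning and for expression in mesoderm and neurons. It lies on 2L at 17647053 to 17778340, minus strand, with 29 exon blocks over 14396 bases and 12 annotated transcripts. It had 33481 and 32233 counts in Antp RNAi against 31745 and 34905 counts in control. Scaled, these were 790 and 701 CPM in Antp RNAi and 597 and 641 CPM in control, and the groups did not overlap. The mean of 745 ± 62.6 CPM in Antp RNAi stood against 619 ± 30.6 CPM in control (SD, n = 2 each), and the log2 fold change was 0.27 ± 0.11 (SE; 95% interval 0.02 to 0.51; adjusted p = 0.358 in edgeR's quasi-likelihood test). CadN was not called. In the alternatives with all 4 libraries, its adjusted p ran from 0.279 in DESeq2 to 0.410 in edgeR with upper-quartile scaling. With a library left out, its log2 fold change ran from 0.19 (without Antp RNAi replicate 1) to 0.37 (without Antp RNAi replicate 2). The neuronal markers overlapped between the groups, at 26.3 to 31.4 CPM in Antp RNAi and 24.3 to 28.2 CPM in control, and their part in CadN was not tested.

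Since shg and CadN lay on opposite sides of the control, their ratio within a library was also taken, a choice made after their values were seen and therefore given with no test. This ratio of counts does not depend on library scaling. It was 1.21 and 1.23 in Antp RNAi and 0.789 and 0.790 in control. The mean ratio was 1.22 ± 0.0150 in Antp RNAi and 0.790 ± 0.000598 in control (SD, n = 2 each), a 1.55-fold difference and 0.63 on the log2 scale. It lay between 0.62 and 0.64 on that scale with any library left out. As the pair of genes was picked from these same libraries, that range is no support for a difference. No other gene pairs were compared, and an SD from 2 ratios is itself uncertain. Per exon length, CadN over shg was 0.538 and 0.548 in Antp RNAi and 0.351 in each control library, so that shg had the higher level of the 2 genes in every library. The sum of both genes was 1441 and 1270 CPM in Antp RNAi and 1354 and 1451 CPM in control, which overlap. In a bulk sample, fewer cells of a type and less RNA per cell cannot be told apart, and this holds for each value here. The disc epithelium markers, summed, were higher in Antp RNAi, as given above. Fas3 had a mean of 14.5 CPM in Antp RNAi and 6.18 CPM in control. Of the 7 markers, 5 had a positive log2 fold change and 2, en and hh, a negative one. The part of other cells in the shg and CadN values was not tested.

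**Figure D2:**
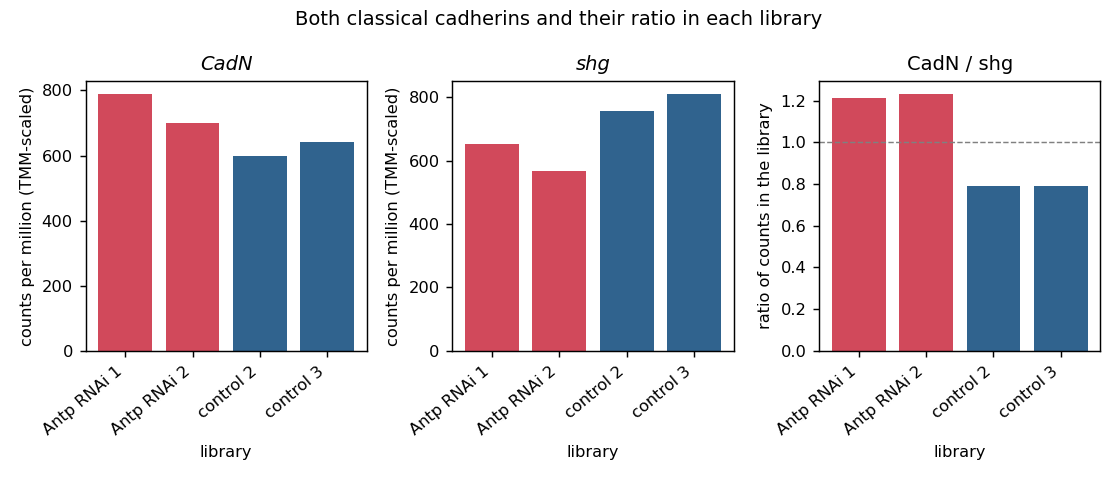
CPM of shg and CadN (left) and the ratio of CadN to shg counts (right) in each library, Antp RNAi before control. The ratio is 1.21 and 1.23 in Antp RNAi and 0.789 and 0.790 in control.

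Antp RNAi was compared with control for each of the 10 genes, in a single fit over all 10360 genes. With the study's threshold, an adjusted p under 0.001, edgeR's quasi-likelihood test called 0 of the 10, where 0.463% of all genes tested were, and limma-voom also called 0. DESeq2 called 1 of the 10 (Cad96Cb) at that threshold, against 1.93% of all genes. At an adjusted p under 0.05, edgeR called 1 of the 10, Cad96Cb, which was lower in Antp RNAi. That threshold called 2.58% of all genes, and 1.22% as lower. At an unadjusted p under 0.05 in edgeR there were 4 of the 10 (shg, CadN, stan and Cad96Cb), against 11.5% of all genes. In the same 4 genes the CPM of Antp RNAi and control were without overlap, as in 40.6% of all genes. CadN and stan were above the control (18.6% of all genes), and shg and Cad96Cb were below it (22.1%). Of the 10 log2 fold changes, 5 were positive and 5 negative, with a median of 0.0052, against -0.01 over all genes tested.

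**Figure D3:**
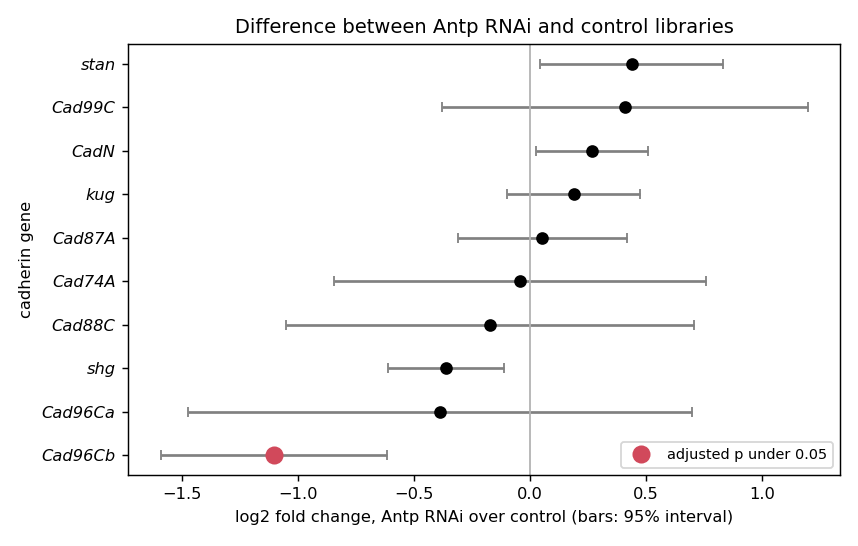
Fitted log2 ratio (Antp RNAi over control) of each cadherin gene, with the 95% interval from edgeR's quasi-likelihood test as bars, on a log2 axis. Cad96Cb, at -1.10, is the only gene with an adjusted p under 0.05; the other 9 have intervals within -1.47 to 1.20.

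Cad96Cb is a less studied cadherin with 3028 bases of exon, on 3R at 25224156 to 25232321, minus strand, and its longest product has 789 residues. It had 264 and 267 counts in Antp RNAi and 812 and 575 counts in control. These were 6.23 and 5.81 CPM in Antp RNAi, against 15.3 and 10.6 CPM in control. Both values in Antp RNAi were under both in control. The control libraries stood 0.53 apart on the log2 scale, and 13.0% of the genes tested had a larger difference between them. The means were 6.02 ± 0.296 CPM in Antp RNAi and 12.9 ± 3.34 CPM in control (SD, n = 2 each). Cad96Cb fell by 1.10 on the log2 scale, with a SE of 0.21, to 46.6% of the control (95% interval of the log2 fold change -1.59 to -0.61; adjusted p = 0.0354 in edgeR's quasi-likelihood test). The call at 0.05 was lost without control replicate 2, where the log2 fold change was -0.79. Without control replicate 3 the log2 fold change was -1.34. Each of these fits leaves 1 control library. In limma-voom the adjusted p was 0.0547, and in DESeq2 it was 5.73e-04. The hemocyte and glial marker sums were also lower in Antp RNAi, at the values given above. Of the tested hemocyte markers, NimC1 (1 and 1 counts in Antp RNAi, 44 and 45 in control) and srp were below the control, and Sr-CI overlapped. The glial sum was 2.28 CPM in control replicate 2 and 2.95 CPM in control replicate 3. The part of these cell types in Cad96Cb was not tested.

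The genes next to Cad96Cb were read from the same fit. The 4 nearest tested neighbours, 2 on each side, had log2 fold changes of -0.04 to 0.10 with adjusted p of at least 0.916 in edgeR. Alg9, the nearest of them, ends 38 bases from Cad96Cb and had 63.4 CPM in Antp RNAi and 65.2 CPM in control. Over all 10 cadherins there were 39 distinct tested neighbours, of which 0 had an adjusted p under 0.05 in edgeR (2.58% of all genes), the smallest being 0.127, and 4 had an unadjusted p under 0.05 (11.5% of all genes). Neighbours lay wholly to one side of a member or wholly within it. The genes that share exon bases with a member, CG7886 and dgt1, were not among them.

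stan, also called Flamingo, encodes a seven-pass cadherin that belongs to the core planar polarity proteins. It lies on 2R at 10673345 to 10721138, plus strand, and its products have 3574 to 3648 residues. It had 393 and 421 counts in Antp RNAi, against 369 and 362 counts in control, or 9.27 and 9.16 CPM in Antp RNAi and 6.94 and 6.64 CPM in control. The groups did not overlap, and the means of 9.21 ± 0.0786 CPM in Antp RNAi and 6.79 ± 0.211 CPM in control (SD, n = 2 each) gave a log2 fold change of 0.44 ± 0.17 (SE; 95% interval 0.05 to 0.83; adjusted p = 0.346 in edgeR's quasi-likelihood test).

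kug, also called Fat2, is a Fat-like cadherin known for the planar polarity of follicle cells and the rotation of the egg chamber. It lies on 3L at 20005301 to 20024607, plus strand, with 14507 bases of exon, the longest of the 10. Its levels were 141 and 122 CPM in Antp RNAi and 106 and 125 CPM in control, so that the groups overlapped. The log2 fold change was 0.19 ± 0.13 (SE, n = 2 each; 95% interval -0.10 to 0.48; adjusted p = 0.684 in edgeR's quasi-likelihood test).

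Cad87A, a less studied cadherin at 3R 11893512 to 11949129 (minus strand), was the other member of moderate level. It had 58.9 and 42.5 CPM in Antp RNAi against 47.3 and 50.3 CPM in control, with the control inside the range of the Antp RNAi libraries. Its log2 fold change was 0.05 ± 0.16 (SE, n = 2 each; 95% interval -0.31 to 0.42; adjusted p = 0.953 in edgeR).

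The 4 remaining cadherins had 24 to 152 counts per library, and the groups overlapped in each. Cad99C, the orthologue of protocadherin-15 and a component of follicle cell microvilli (3R, 29841657 to 29854699, plus strand), had 3.58 and 1.98 CPM in Antp RNAi and 2.07 and 2.11 CPM in control. Cad96Ca, or Stitcher, a cadherin with a receptor tyrosine kinase domain known from epidermal wound repair (3R, 25197571 to 25208283, minus strand), had 1.20 and 0.522 CPM in Antp RNAi, against 1.15 and 1.10 CPM in control. In both genes the spread came from the Antp RNAi pair, and the control libraries were close together.
Cad74A, known from the follicle cells of the ovary (3L, 17367753 to 17379530, minus strand), had 2.92 and 1.67 CPM in Antp RNAi and 2.07 and 2.66 CPM in control. Cad88C, a less studied cadherin (3R, 14630478 to 14641776, plus strand), had 1.04 and 1.46 CPM in Antp RNAi and 1.66 and 1.16 CPM in control. The log2 fold changes were 0.41 for Cad99C (95% interval -0.38 to 1.20), -0.39 for Cad96Ca (-1.47 to 0.70), -0.04 for Cad74A (-0.84 to 0.76) and -0.17 for Cad88C (-1.05 to 0.71). Their adjusted p in edgeR's quasi-likelihood test were 0.773, 0.864, 0.987 and 0.934, in that order. Intervals of this width leave changes of over 1.5-fold in either direction possible for Cad96Ca, Cad74A and Cad88C.

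The cadherin genes have long summed exons, and the difference between the 2 Antp RNAi libraries varied with summed exon length. In Antp RNAi replicate 1, 9 of the 10 members were higher than in replicate 2, where 49.3% of all genes tested were, and Cad88C was the exception. Between the control libraries, 4 of the 10 were higher in replicate 2, against 47.9% of all genes. Of the 5262 tested genes with up to 2000 bases of exon, 37.1% were higher in Antp RNAi replicate 1, and of the 249 genes over 10000 bases 81.1% were. The share was 57.0% of the 3740 genes of 2000 to 5000 bases, which hold 2 members, and 74.1% of the 1109 genes of 5000 to 10000 bases, which hold 5 members. The 3 longest members, CadN, stan and kug, fall in the class over 10000 bases. The median log2 ratio of replicate 1 over replicate 2 was -0.12, 0.05, 0.17 and 0.23 from the shortest to the longest class in Antp RNAi, and -0.02, 0.0014, 0.02 and 0.01 for control replicate 2 over 3.
The median log2 fold change between Antp RNAi and control differed between length classes as well, and was -0.06, 0.03, 0.07 and 0.09 over the 4 classes. Set against the median of its own class, shg was lower by 0.43, Cad96Cb lower by 1.13, CadN higher by 0.18, stan higher by 0.35 and kug higher by 0.10 on the log2 scale. Cad96Ca was lower by 0.41, Cad99C higher by 0.34, Cad88C lower by 0.24, Cad74A lower by 0.11 and Cad87A lower by 0.01. In these last genes and in kug the groups overlapped. The part of length in these values was not tested.

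**Figure D4:**
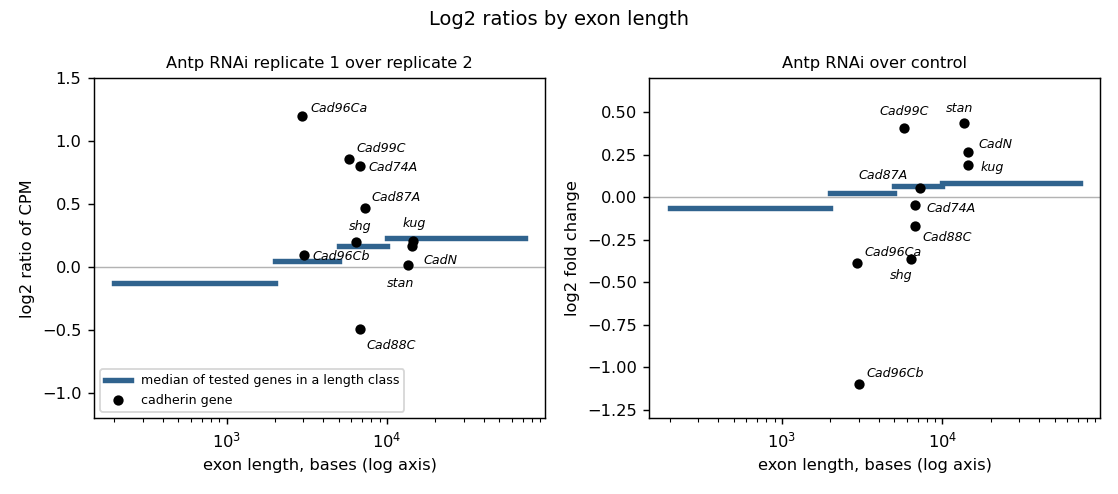
Log2 ratio against summed exon length (log axis) for the 10 cadherin genes (points) and the median of tested genes in 4 length classes (lines), for Antp RNAi replicate 1 over replicate 2 (left) and Antp RNAi over control (right). The class medians go from -0.12 to 0.23 on the left and from -0.06 to 0.09 on the right, and 9 of 10 members lie above 0 on the left.

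Partner genes of the cadherins were read from the same fit, as 31 listed genes of which 30 were tested. At an adjusted p under 0.001 edgeR called 1 of the 30 (0.463% of all genes), and at 0.05 it called 2 (2.58% of all genes), ds and fz, both lower in Antp RNAi. Without Antp RNAi replicate 1 there were 6 at 0.05, beside 760 of all 10814 genes tested in that fit. Without Antp RNAi replicate 2 there were 7, beside 1403 of 10830 genes. The median log2 fold change of the 30 was 0.05. Among 10 genes of the catenins and the adherens junction, 0 were called at 0.05 by edgeR (2.58% of all genes), and 1 was at an unadjusted p under 0.05 (11.5% of all genes), with a median log2 fold change of 0.05. arm, the beta-catenin to which shg and CadN bind, had 1634 ± 127 CPM in Antp RNAi and 1671 ± 5.73 CPM in control (SD), with a log2 fold change of -0.03 ± 0.10 (SE, n = 2 each; adjusted p = 0.953 in edgeR). alpha-Cat, the alpha-catenin that links arm to actin, had 395 ± 19.1 CPM in Antp RNAi and 404 ± 21.8 CPM in control (SD), with a log2 fold change of -0.03 ± 0.10 (SE, n = 2 each; adjusted p = 0.956 in edgeR). In both genes the groups overlapped.

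Of the 5 core planar polarity partners of stan, 1 was called at 0.05 by edgeR (2.58% of all genes), the receptor gene fz. It had 121 and 108 CPM in Antp RNAi, against 232 and 214 CPM in control. fz fell by 0.96 on the log2 scale with a SE of 0.11, to 51.4% of the control (adjusted p = 0.00287 in edgeR's quasi-likelihood test). The other 4, Vang, pk, dsh and dgo, had log2 fold changes of -0.42 to 0.24 and overlapping groups. Partners of kug and CadN gave 0 of 8 called at 0.05 by edgeR and 2 at an unadjusted p under 0.05, where 2.58% and 11.5% of all genes were, with a median log2 fold change of 0.13. Those of Cad99C gave 0 of 2 called (0 at an unadjusted p under 0.05; median -0.04).

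Among 5 other tested cadherins, ds alone was called at 0.05 by edgeR (2.58% of all genes). ds, the ligand of ft, had 41.0 and 33.3 CPM in Antp RNAi against 200.1 and 162 CPM in control, and its log2 fold change was -2.29 ± 0.15 (SE, n = 2 each; adjusted p = 2.27e-04 in edgeR). The other 4, ft, CadN2, Cad86C and Cals, had log2 fold changes of -0.52 to 0.06 and adjusted p of at least 0.832. Cad89D had 1 count in each Antp RNAi library and 0 in each control library and was not tested.

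**Figure D5:**
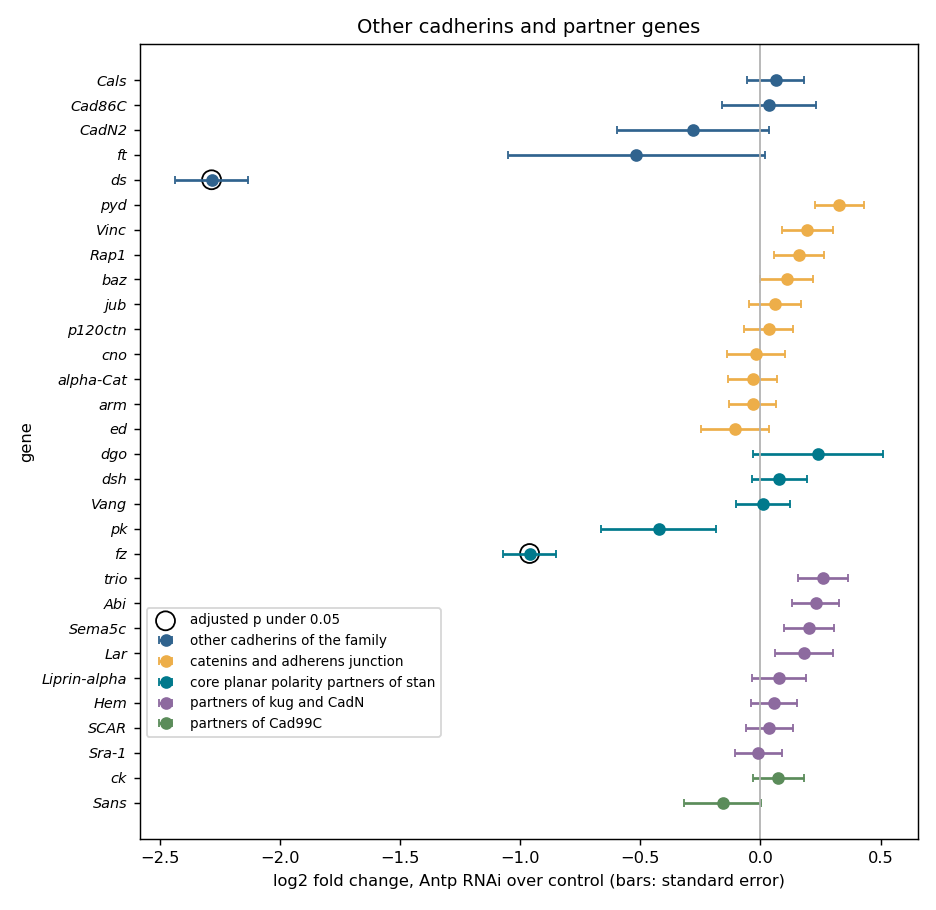
Fitted log2 ratio (Antp RNAi over control), with the standard error as bars, for the tested partner genes and other cadherins, grouped by list. ds, at -2.29, and fz, at -0.96, are the 2 genes with an adjusted p under 0.05 (circles).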

How the data were processed

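Counts are the deposited table of whole-number read counts per gene over exons, made by the authors without normalization. Per the submitters' processing notes, bcl2fastq 2.17.1.14, Subread, featureCounts and DESeq2 1.34 were used with build dm6, but strand use and the handling of reads over overlapping genes are not given in the sources used here. SMART-Seq cDNA from 2 ng of RNA went through 10 PCR cycles and Nextera libraries through 12, with no molecular identifiers. The deposited comparison table holds the authors' mean of size-factor-scaled counts, log2 fold changes with standard errors, and p-values, none of which were used; only its gene symbols were. Every count column was matched to a sample.

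The two-sided test was edgeR's quasi-likelihood test (version 4.0.16, in R 4.3.3), after its filter on low counts (minimum 10), TMM scaling and Benjamini-Hochberg adjustment over 10360 genes. The standard error is the size of the log2 fold change over the square root of F. DESeq2 1.42.0 and limma 3.58.1 (voom) served as alternatives, beside other scalings, filters and thresholds and each library left out. A set of 2 against 2 libraries allows no exact two-sided permutation p under 0.333. Transcripts and protein lengths come from the Ensembl 115 annotation, whose starts and ends match the deposited table for all 10 genes.

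The members and the lists of partner and marker genes were chosen with earlier results of these data known. All 10 members are named whatever their values, with Antp and y as hairpin targets, and, of the partner genes, arm, alpha-Cat and those with an adjusted p under 0.05.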

Additional observations from a re-analysis of the deposited data

How the results depend on the processing

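No paired analysis was possible because replicate 2 is the one number found in Antp RNAi and in control, so a replicate block could not be fitted. Of all genes tested, 48 were called at an adjusted p under 0.001 in edgeR, against 236 with DESeq2, 120 with every gene of at least 1 count, 33 with limma-voom, 32 each with median-of-ratios size factors, upper-quartile scaling and a mean of at least 100 counts, 267 at an adjusted p under 0.05 and 153 to 228 with a library left out. Of the 10 cadherins 0 were called, against 1 with DESeq2, 1 at 0.05 and 0 to 1 with a library left out. Of the partner genes 1 was called, against 2 with DESeq2, 2 with every gene of at least 1 count, 2 at 0.05 and 1 to 2 with a library left out. At 0.05, the 267 genes became 445 with DESeq2, 406 with every gene of at least 1 count and 314 to 1403 with a library left out (1403 without Antp RNAi replicate 2). At 0.05, the count of cadherins called was 1, against 0 in limma-voom and 0 to 3 with a library left out (0 without control replicate 2, 3 without Antp RNAi replicate 2). Where a fit left 1 library in a group, that library was assumed to vary like the other group. With a library left out, the median log2 fold change of the members ran from -0.13 to 0.30 and was 0.13 for the 8 members with a mean of at least 100 counts. The direction turned with a library left out for Cad99C (-0.073 to 0.80), Cad96Ca (-1.10 to 0.11), Cad74A (-0.49 to 0.32), Cad87A (-0.20 to 0.29), Cad88C (-0.42 to 0.13), arm (-0.10 to 0.051) and alpha-Cat (-0.068 to 0.033), and the cause was not tested. shg, CadN, stan, kug and Cad96Cb kept their direction under each alternative run. Counts of 24 to 152 per library limit the 4 low members.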
